A study of Rattus norvegicus with 24 samples.

Results

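The genes described here are the fibrillar collagen genes Col1a1, Col1a2, Col3a1, Col5a1 and Col5a2, and 4 genes of the matrix that activated fibroblasts lay down, Postn, Fn1, Tnc and Lox. They were taken by gene symbol from 4 tables of gene expression in rat myocardium, and all 9 are listed in each of the 4 tables, out of 10797 symbols found in any table. Mitral regurgitation (MR), a leak that returns blood to the atrium with each beat, was made in Sprague-Dawley rats by opening the left chest and perforating a leaflet of the mitral valve. Sham rats had the operation with the leaflet left whole. At 2 weeks after surgery there are 5 Sham and 4 MR libraries. Each later MR group, at 10, 20 or 40 weeks, has n = 5, and each table sets 1 MR time beside the same 5 Sham libraries, so the 4 comparisons with Sham are not independent. No Sham library is later than 2 weeks, so in the 3 later groups time with MR, ageing and handling cannot be told apart. The labels give no age, sex, heart chamber or batch and do not say that each library is a separate animal, so a p-value measures the spread between these libraries, which may be technical.

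Fibrillar collagens give the heart wall its tensile strength. Type I collagen is built from the products of Col1a1 and Col1a2, type III from Col3a1, and type V, which starts fibrils and sets their diameter, from Col5a1 and Col5a2. Cardiac fibroblasts make all of these, and fibroblasts activated by injury or load add fibronectin (Fn1), tenascin C (Tnc) and periostin (Postn), while lysyl oxidase (Lox) cross-links the collagen outside the cell.

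Depth was 7691414 (Sham replicate 3) to 12097813 reads on listed genes per library. Values are normalised read counts. Levels are given after the 24 libraries were put on 1 scale, and each difference from Sham is on the scale of its own deposited table, as log2(value + 1) with its SE. All 8 cardiomyocyte markers looked up were listed in every table, with a summed level of 22325 to 45457 over the 24 libraries, while 3 of 5 atrial markers were listed (not Sln or Bmp10) and summed to 40.6 to 3952. In whole tissue, fewer cells of a type and less RNA per cell cannot be told apart.

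Sham replicate 3 stood apart from the other 4 Sham libraries for these genes. Its level was 19.8 times the mean of the other Sham libraries for Tnc, 14.3 times for Postn, 6.80 times for Fn1, 4.66 times for Col1a1, 4.14 times for Lox, 3.45 times for Col1a2, 2.93 times for Col3a1, 1.92 times for Col5a2 and 1.24 times for Col5a1. The 9 genes took 0.637% of reads in this library and 0.141% to 0.192% in the other Sham libraries, and 0.180%, 0.618%, 0.387% and 0.349% in the MR libraries at 2 weeks. Most of the markers looked up for activated, contractile fibroblasts moved with them. The summed level of 8 myofibroblast markers was 259 in it and 33.5 to 109 in the other Sham libraries, with Cthrc1 at 26.1 times, Cnn1 at 9.16 times and Acta2 at 3.33 times the mean of the others. Tagln was at 5.53 times, Ltbp2 at 4.62 times and Thbs4 at 3.01 times, while Fap was at 1.39 times and Meox1 at 1.18 times. Cnn1, Acta2 and Myh11 (3.84 times) also mark smooth muscle, whose 8 markers summed to 446 against 205 to 310.0. The other markers on that list were Pdgfrb at 1.61, Cspg4 at 1.14, Abcc9 at 1.06, Kcnj8 at 0.951 and Rgs5 at 0.670 times. The quiescent fibroblast markers summed to 1464 against 1542 to 1848, a sum in which Gsn weighs most (0.711 times the mean of the others). Cd34 was at 0.694 times, Dcn at 0.939 times and Tcf21 at 0.972 times. Above the mean of the others were Dpt at 1.78, Mfap5 at 1.45, Col15a1 at 1.15, Pi16 at 1.12 and Pdgfra at 1.09 times. The mesothelial markers summed to 23.3, inside the 18.9 to 40.5 of the other Sham libraries. Every marker of the myofibroblast, smooth muscle and quiescent fibroblast lists is given, and naming them singly was decided after their values were seen. What sets this library apart was not tested, and the comparisons with Sham are given with and without it.

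RefSeq promoter entries matched 5 of the 9 genes, and 4 are shown, chosen after their values were seen: Col1a2 and Postn, which both fell at 20 and 40 weeks against MR at 2 weeks, and Col5a1 and Col5a2, whose products share a molecule and which stood on opposite sides of Sham at 40 weeks. Each run is the 250 bases before the annotated start on assembly GRCr8, 5′ to 3′, with matches to TATAAA and CCAAT on either strand in capitals. Col1a2 is at chr4:33518307-33518556 (plus strand), Col5a1 at chr3:31606630-31606879 (plus), Col5a2 at chr9:55090152-55090401 (minus) and Postn at chr2:140677811-140678060 (plus).
Col1a2: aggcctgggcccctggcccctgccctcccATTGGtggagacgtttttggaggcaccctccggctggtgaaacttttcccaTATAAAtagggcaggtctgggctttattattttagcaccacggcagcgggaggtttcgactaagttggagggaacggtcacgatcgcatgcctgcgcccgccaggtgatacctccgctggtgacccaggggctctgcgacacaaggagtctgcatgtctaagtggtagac
Col5a1: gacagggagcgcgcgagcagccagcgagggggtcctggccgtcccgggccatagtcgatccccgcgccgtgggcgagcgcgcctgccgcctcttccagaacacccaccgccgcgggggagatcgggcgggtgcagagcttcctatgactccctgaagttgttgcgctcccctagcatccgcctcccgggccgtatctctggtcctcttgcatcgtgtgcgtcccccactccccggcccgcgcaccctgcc
Col5a2: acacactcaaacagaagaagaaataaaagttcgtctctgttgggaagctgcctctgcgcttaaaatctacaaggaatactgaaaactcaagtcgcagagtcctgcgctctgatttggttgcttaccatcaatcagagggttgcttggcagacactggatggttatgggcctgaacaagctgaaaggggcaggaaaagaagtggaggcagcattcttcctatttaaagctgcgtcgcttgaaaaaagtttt
Postn: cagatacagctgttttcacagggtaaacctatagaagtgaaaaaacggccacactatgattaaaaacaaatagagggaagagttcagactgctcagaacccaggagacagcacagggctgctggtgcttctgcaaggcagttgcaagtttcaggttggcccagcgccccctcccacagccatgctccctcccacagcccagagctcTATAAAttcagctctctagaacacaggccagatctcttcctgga
The Col1a2 window holds TATAAA 170 bases and CCAAT (read as ATTGG) 221 bases before the annotated start. The Postn window holds TATAAA 44 bases before the start. Neither motif occurs in the Col5a1 or Col5a2 window, and the GC share of those 2 windows was 71.6% and 44.8%, against a median of 51.2% over 33469 promoters. Over those promoters 12.9% of windows of this length hold TATAAA and 34.02% hold CCAAT, so a match is common, and it is a description of these letters.

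The differences from Sham were above 0 at 2 weeks of MR and mostly below 0 later, and calls past the test came at 40 weeks. A call here is an adjusted p under 0.05. At 2 weeks limma called 0 of the 9 genes, where 0% of 10173 genes were called. At an unadjusted p under 0.05 there were also 0 of the 9, against 556 of all genes. All 9 differences were above 0, with a median of 0.47 on the log2 scale against −0.07 over all genes. No gene was free of overlap with Sham, against 2.16% of all genes. Without Sham replicate 3 the median was 0.75, still with 0 calls over all genes. An unadjusted p under 0.05 was held by 7 of the 9 genes, against 967 of 10167 over all. In that fit Fn1, Tnc and Col5a2 were above every remaining Sham library, 3 of 9 against 1.89% of all genes higher without overlap. Tnc and Lox passed the filter on low values, a table mean of at least 1, through their MR libraries. Their means were 4.40 and 2.08 there, against 0.344 and 0.544 in the remaining Sham libraries. Neither edgeR nor DESeq2 on recovered reads called any of the 9, where edgeR called 0 of 10407 genes and DESeq2 65 of 10424.

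At 10 weeks 8 of the 9 genes passed the filter on low values, since Lox lay under a table mean of 1. Tnc passed through Sham replicate 3, with a mean of 1.49 in Sham, 0.332 in Sham without that library and 0.528 in MR. Its place among the 8 is therefore a description only. None was called, where 0.168% of all genes were, and none was free of overlap with Sham, against 2.45% of all genes. An unadjusted p under 0.05 was held by 3 of the 8, against 1212 of 10096 over all. Of the members edgeR and DESeq2 called 0, where over all genes they called 8 of 10373 and 85 of 10392. The median difference of the 8 genes was −0.61, against 0.06 over all genes. Without Sham replicate 3 Tnc was under the filter. The median of the 7 other genes was then −0.26, and 0 of them were called, where 0.119% of all genes were. At 20 weeks 7 genes were tested, Tnc and Lox being under the filter. All 7 differences were below 0, with a median of −1.09 against 0.00 over all genes, and 0 were called, where 0.0698% of all genes were. Col1a1, Col1a2 and Col3a1 were below every Sham library, 3 of 7 against 1.3% of all genes lower without overlap. An unadjusted p under 0.05 was held by 4 of the 7, against 951 of 10025 over all. Without Sham replicate 3 the median was −0.49, and limma called Col1a1 and Col3a1, where 0.0501% of all genes were called. DESeq2 called 2 of the 9 genes, Col1a2 and Col3a1, where it called 93 of 10260 genes, and edgeR called 0, where it called 8 of 10237.

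At 40 weeks 8 genes were tested, Tnc being under the filter, and 4 fell, where 47.3% of all genes were called and 30.9% fell. The 4 were Col1a1, Col1a2, Col3a1 and Col5a2, and none rose. With Sham replicate 3 left out these 4 fell and Lox rose, where 44.1% of all genes were called and 14.2% rose. Col3a1 and Col5a2 were below every Sham library, 2 of 8 against 20.2% of all genes lower without overlap. On the deposited scale the median of all genes was −0.15 at this time, and after rescaling by the median ratio it was −0.01. The share of calls that were higher was 34.5% as deposited and 52.1% rescaled. Rescaled, Col3a1 was at −1.07 (limma adjusted p = 0.00962) and Col5a2 at −0.64 (0.0106), Col1a1 at −0.79 (0.0925) and Col1a2 at −0.65 (0.0920) were no longer called, and Col5a1 was called higher at 0.43 (0.0384). Gene length moved with the differences at this time: with genes split into 4 equal sets by span, the set of shortest genes had a median of −0.24 and the set of longest genes 0.22 on the rescaled values, and at the 3 earlier times these medians lay between −0.06 and 0.04. By span Col1a1 stood at percentile 43.6, Col3a1 at 66.4, and Col5a1 and Col5a2 at 92.6 and 92.5. The part of gene length in these results was not tested.

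**Figure D1:**
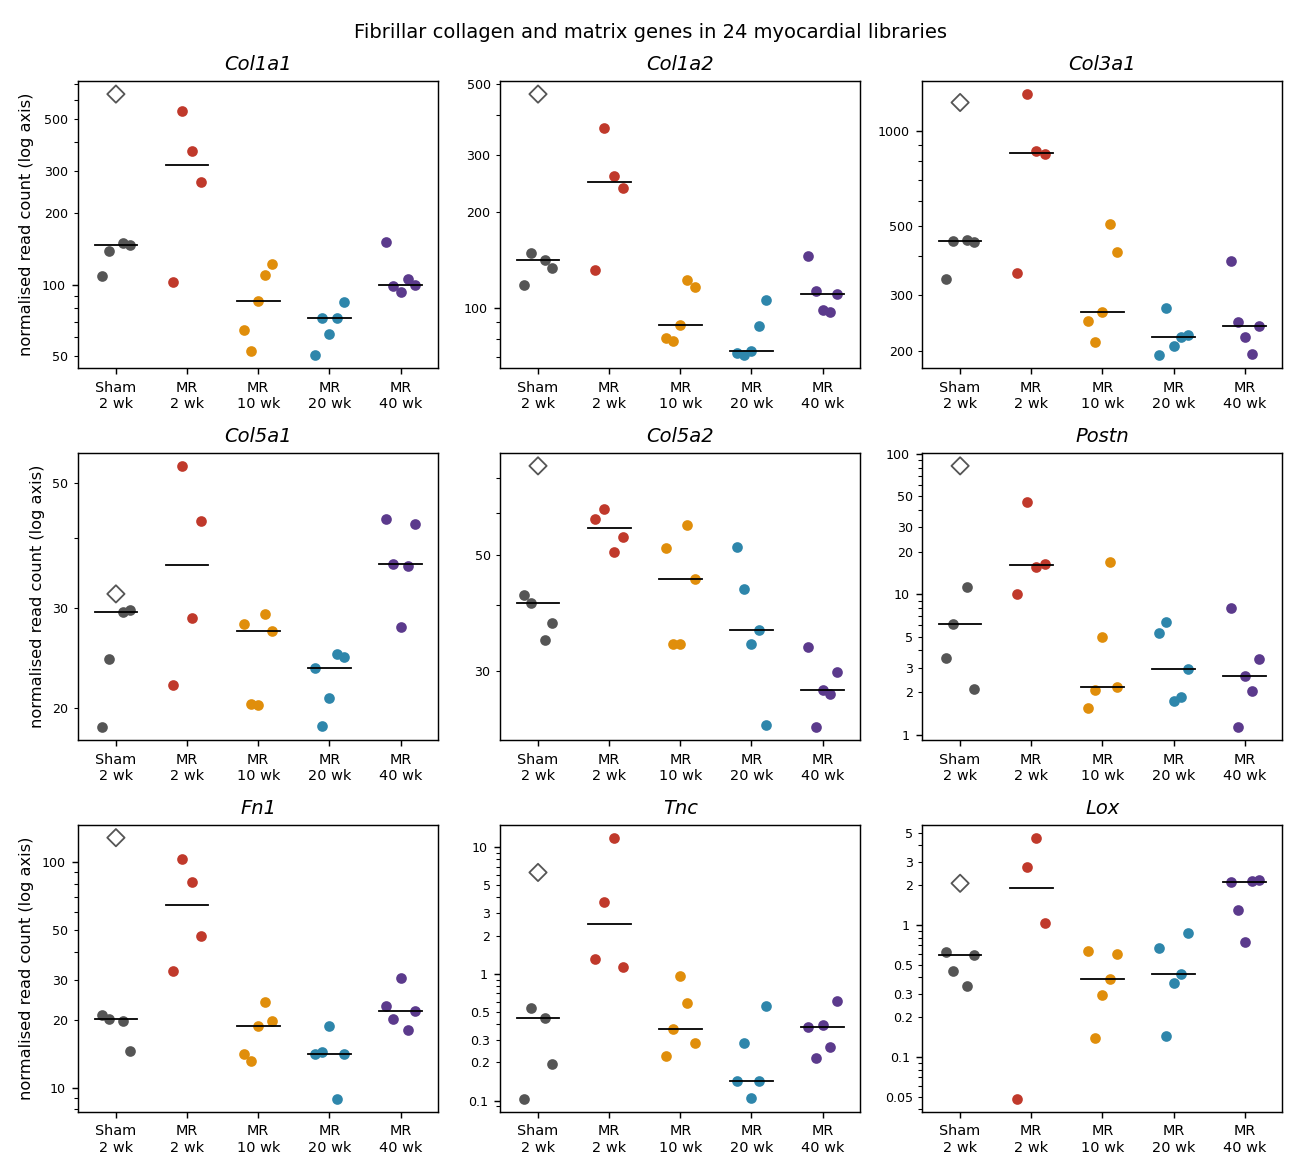
Level of each of the 9 genes in each of the 24 libraries (normalised read count on 1 scale, log axis), by group. Points are libraries, the open diamond is Sham replicate 3 and bars are group medians; for Col1a1 the MR libraries at 20 weeks (50.5 to 84.7) lie under all 5 Sham libraries (109 to 636), while Lox at 40 weeks (0.747 to 2.17) lies above the other 4 Sham libraries.

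Type I and type III collagen genes had their highest MR levels at 2 weeks and their lowest medians at 20 weeks. Col1a1 (rn6, chromosome 10, 82745801 to 82762791, plus strand, as the tables list it, without saying whether starts count from 0 or 1) was at 109, 139, 636, 150.0 and 148 in the Sham libraries and at 102, 542, 365 and 271 in MR at 2 weeks. In the later groups it was at 64.2, 52.6, 85.6, 110.4 and 122 at 10 weeks, 50.5, 72.5, 62.0, 72.1 and 84.7 at 20 weeks, then 151, 98.4, 93.3, 106 and 99.4 at 40 weeks. In MR at 2 weeks 3 of the 4 libraries were above the 4 Sham libraries other than replicate 3, and MR replicate 1 was below all 5. The Col1a1 difference from Sham was 0.47 ± 0.51 at 2 weeks (limma adjusted p = 0.863), −1.08 ± 0.38 at 10 weeks (0.283), −1.45 ± 0.35 at 20 weeks (0.197) and −0.95 ± 0.35 at 40 weeks (0.0368). Without Sham replicate 3 the same 4 differences were 0.88 (0.521), −0.66 (0.233), −1.03 (0.0447) and −0.53 (0.0198). Leaving out that library brought the 20-week call and moved the 40-week size by over 1.5 times. The 40-week call of Col1a1 was lost without MR replicate 2, 3, 4 or 5, with an adjusted p of 0.0615 to 0.0817, and that of Col1a2 without the same libraries, with an adjusted p of 0.0512 to 0.0654.

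Col1a2 encodes the other chain of type I collagen. It ranged from 118 to 466 in Sham (median 141), 131 to 365 in MR at 2 weeks (median 247), 78.9 to 122 at 10 weeks (median 88.5), 71.2 to 106 at 20 weeks (median 73.4) and 97.2 to 145 at 40 weeks (median 111). Its difference from Sham was −1.09 ± 0.28 at 20 weeks (limma adjusted p = 0.240) and −0.81 ± 0.28 at 40 weeks (0.0304), and −0.75 (0.0823) and −0.48 (0.0183) without Sham replicate 3. With edgeR the 40-week adjusted p was 0.0558. The tables give it a span of 2039 kb on rn6 (chromosome 4, 29529854 to 31569153, plus strand), over which 5 other listed genes lie, 2 of them on the same strand. How reads in such overlaps were counted is not given in the sources used here. Over the 24 libraries Col1a2 followed Col1a1 with a Spearman rho of 0.95, and its rho with the 5 overlapping genes ran from −0.59 (Pdk4) to 0.49 (Pon2). The part of overlapping reads in the Col1a2 values was not tested.

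Col3a1 (rn6, chromosome 9, 52023295 to 52059222, plus strand) encodes type III collagen, the finer and more compliant fibre. It was at 339, 446, 1232, 450.4 and 444 in Sham and at 353, 1311, 864 and 843 in MR at 2 weeks. It was at 249, 212, 265, 504 and 413 at 10 weeks, 193, 273, 207, 220.2 and 224 at 20 weeks, then 385, 247, 221, 194 and 239 at 40 weeks. All 5 libraries at 20 weeks were below all 5 Sham libraries, and 2 libraries at 10 weeks lay within the Sham range. On the joined scale MR replicate 1 at 40 weeks (385) lay above the lowest Sham library (339), while in the deposited 40-week table the groups did not overlap. Its difference from Sham was 0.47 ± 0.39 at 2 weeks (limma adjusted p = 0.845), −0.66 ± 0.30 at 10 weeks (0.403), −1.23 ± 0.26 at 20 weeks (0.108) and −1.23 ± 0.28 at 40 weeks (0.00310). When Sham replicate 3 was left out the difference was −0.94 (0.0472) at 20 weeks and −0.95 (0.00207) at 40 weeks. The 40-week call was past the threshold in all 10 fits that left out 1 library and in all 9 other settings.

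The log2 ratio of Col1a1 to Col3a1 reads within a library, which needs no scaling between libraries and is not corrected for length, was −1.49 ± 0.30 in Sham (SD, n = 5), −1.49 ± 0.27 in MR at 2 weeks (SD, n = 4), −1.91 ± 0.22 at 10 weeks, −1.72 ± 0.22 at 20 weeks and −1.21 ± 0.19 at 40 weeks (SD, n = 5 each). The lowest mean was at 10 weeks and the highest at 40 weeks. In exact two-sided permutation tests against Sham, adjusted over the 4 comparisons, the difference was −0.42 at 10 weeks (p = 0.0159, adjusted 0.0635) and 0.28 at 40 weeks (p = 0.159, adjusted 0.243), and at 2 and 20 weeks the adjusted p was 1 and 0.243. The smallest p these tests can give is 0.00794 with 5 libraries in each group. With 4 against 5 it is 0.0159, as at 2 weeks and in the 10-week and 40-week tests without 1 library. Without Sham replicate 3 the 40-week difference was 0.41, with an adjusted p of 0.0317. With Col1a2 in place of Col1a1 the 10-week difference was −0.12 (adjusted p = 0.421) and the 20-week difference changed sign, from −0.23 to 0.13, while the 40-week difference was 0.42 (0.0635). Without MR replicate 3 at 10 weeks the Col1a1 difference there was −0.49, with an adjusted p of 0.0317.

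**Figure D2:**
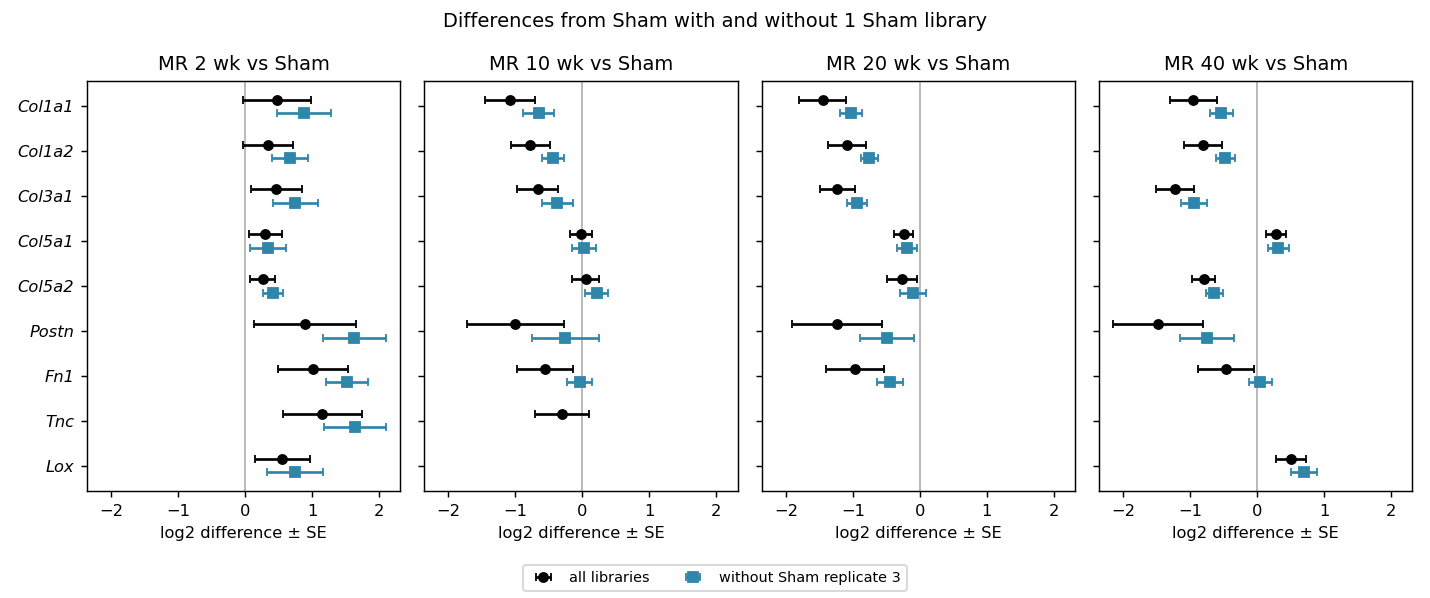
Difference of each MR group from Sham for the 9 genes (log2 difference ± SE, own table of each time), with all libraries (black circles) and without Sham replicate 3 (blue squares). Genes with no mark were under the filter on low values; Fn1 at 40 weeks moves from −0.47 to 0.05 without that library.

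The type V collagen genes stood on opposite sides of Sham at 40 weeks. Col5a1 (rn6, chromosome 3, 6430591 to 6578877, plus strand) was at 18.5, 24.4, 31.8, 29.6 and 29.8 in Sham and at 22.0, 53.6, 28.8 and 42.9 in MR at 2 weeks. It was at 28.2, 20.3, 20.2, 29.4 and 27.4 at 10 weeks, 23.5, 18.6, 20.9, 24.9 and 24.7 at 20 weeks, then 43.2, 36.0, 27.8, 35.7 and 42.4 at 40 weeks. At 40 weeks 4 of the 5 libraries were above all 5 Sham libraries. Its difference from Sham was 0.28 ± 0.15 at 40 weeks (limma adjusted p = 0.147), or 0.32 ± 0.16 without Sham replicate 3 (0.125), and it was called higher after rescaling (above), with edgeR at 0.45 (0.0349) and with DESeq2 at 0.44 (0.0277). At 2, 10 and 20 weeks it was 0.31 ± 0.25, −0.02 ± 0.16 and −0.24 ± 0.14.

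Col5a2 (rn6, chromosome 9, 52091088 to 52238736, minus strand), the neighbour of Col3a1, was at 41.9, 40.4, 73.9, 34.3 and 37.0 in Sham and at 58.4, 61.1, 50.7 and 54.1 in MR at 2 weeks. It was at 51.6, 33.7, 33.7, 57.1 and 44.9 at 10 weeks, 51.7, 43.1, 33.8, 35.8 and 23.6 at 20 weeks, then 33.4, 23.4, 27.6, 27.1 and 29.9 at 40 weeks. All 4 MR libraries at 2 weeks were above the 4 Sham libraries other than replicate 3, and all 5 at 40 weeks were below every Sham library. The difference from Sham was 0.27 ± 0.19 at 2 weeks (limma adjusted p = 0.842) and −0.80 ± 0.17 at 40 weeks (0.00213), and −0.64 ± 0.13 (0.00225) at 40 weeks without Sham replicate 3. The 40-week call was past the threshold in all 10 fits that left out 1 library and in all 9 other settings. The log2 ratio of Col5a1 to Col5a2 reads was −0.73 ± 0.47 in Sham (SD, n = 5) and 0.38 ± 0.23 in MR at 40 weeks (SD, n = 5), where it ranged from 0.01 to 0.62. Its highest value in any other library was 0.06, in 1 library at 20 weeks, and this ratio was chosen after its values were seen, so it carries no test.

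**Figure D3:**
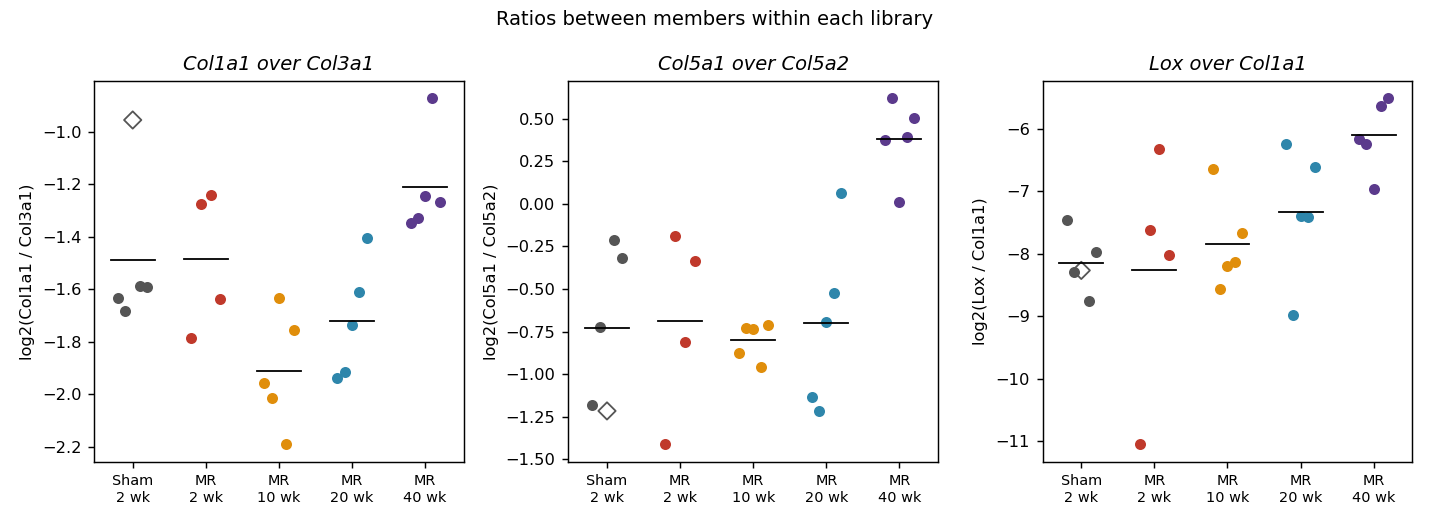
Log2 ratio of reads of 2 genes within each library, by group: Col1a1 over Col3a1, Col5a1 over Col5a2 and Lox over Col1a1. Points are libraries, the open diamond is Sham replicate 3 and bars are group means; the 5 libraries at 40 weeks hold Col5a1 over Col5a2 ratios of 0.01 to 0.62 and a mean Lox over Col1a1 ratio of −6.11.

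Fn1 (rn6, chromosome 9, 78900113 to 78969014, minus strand) encodes fibronectin, which cells bind through integrins and on which collagen assembles. It was at 20.9, 20.1, 128, 19.7 and 14.5 in Sham and at 32.7, 103, 81.5 and 46.7 in MR at 2 weeks. It was at 14.04, 13.1, 18.8, 23.9 and 19.7 at 10 weeks, 14.1, 14.4, 18.7, 8.92 and 14.1 at 20 weeks, then 22.9, 20.1, 30.7, 18.1 and 21.8 at 40 weeks. Each MR library at 2 weeks was above every Sham library but replicate 3. The 2-week difference was 1.01 ± 0.52 (limma adjusted p = 0.840) and 1.52 ± 0.31 without Sham replicate 3 (0.247). At 40 weeks it was −0.47 ± 0.42 (0.376) with that library and 0.05 ± 0.17 without it (0.835).

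Tnc (rn6, chromosome 5, 79790275 to 79849866, minus strand) encodes tenascin C, a protein that loosens cell adhesion and is scarce in healthy adult myocardium. In Sham it was at 0.103, 0.532, 6.30, 0.444 and 0.195, from 2, 12, 116, 9 and 4 reads. In MR at 2 weeks it was at 1.30, 3.66, 11.8 and 1.12, from 27, 92, 228 and 27 reads. The later MR libraries held 2 to 23 reads each, with levels of 0.225 to 0.963 at 10 weeks, 0.105 to 0.562 at 20 weeks and 0.217 to 0.607 at 40 weeks. All 4 MR libraries at 2 weeks were above every later MR library and every Sham library but replicate 3. The 2-week difference was 1.15 ± 0.59 (limma adjusted p = 0.840), and 1.63 ± 0.46 without Sham replicate 3 (0.389). With so few reads the log2(value + 1) scale understates the size of a difference.

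Postn (rn6, chromosome 2, 143656845 to 143688088, plus strand) encodes periostin, the usual marker of activated cardiac fibroblasts. It was at 3.52, 6.12, 82.3, 11.3 and 2.10 in Sham and at 9.99, 45.1, 15.6 and 16.5 in MR at 2 weeks. It was at 1.54, 2.08, 4.98, 16.9 and 2.19 at 10 weeks, 5.31, 6.40, 1.73, 1.84 and 2.96 at 20 weeks, then 7.97, 1.14, 2.63, 2.05 and 3.44 at 40 weeks. Even without replicate 3 the Sham libraries overlapped MR at 2 weeks, since 1 Sham library (11.3) was above 1 MR library (9.99). The difference from Sham was 0.90 ± 0.76 at 2 weeks (limma adjusted p = 0.845) and −1.48 ± 0.67 at 40 weeks (0.0803), and 1.63 ± 0.47 (0.406) and −0.75 ± 0.41 (0.149) without Sham replicate 3. At 40 weeks edgeR (−2.60, adjusted p = 0.0293) and DESeq2 (−2.63, 0.0191) called it, as did limma without Sham replicate 5 (−1.91, 0.0266).

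Lox (rn6, chromosome 18, 47503348 to 47577820, minus strand) was the member with the fewest reads beside Tnc and cross-links collagen and elastin. It was at 0.621, 0.444, 2.06, 0.346 and 0.586 in Sham, from 7 to 38 reads, and at 0.0483, 2.74, 4.57 and 1.04 in MR at 2 weeks, from 1, 69, 88 and 25 reads. It was at 0.638, 0.139, 0.293, 0.392 and 0.600 at 10 weeks, 0.663, 0.143, 0.366, 0.425 and 0.868 at 20 weeks, then 2.10, 1.30, 0.747, 2.14 and 2.17 at 40 weeks, from 17 to 48 reads. All 5 libraries at 40 weeks were above the 4 Sham libraries other than replicate 3. The 40-week difference was 0.50 ± 0.23 (limma adjusted p = 0.0829) and 0.69 ± 0.19 without Sham replicate 3 (0.0111). In the fit without that library Lox passed the filter on low values through its 40-week level, so the call is a description only. Its listed span lies inside that of Myot on the other strand, and the strand setting of the counting is not given in the sources used here. Myot was at 0.435 to 2.17 in Sham and 2.60 to 3.69 at 40 weeks, and also at 1.79 to 4.77 at 20 weeks, where Lox was at 0.143 to 0.868; over the 24 libraries their Spearman rho was −0.05.

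Between the MR times, tested in 1 fit of all 24 libraries and 9984 genes on the joined scale, most of the 9 genes were highest at 2 weeks. The 3 comparisons with 2 weeks share its 4 libraries, so they are not independent. Tnc reached the filter mean of 1 through MR at 2 weeks (mean 4.48) and Sham replicate 3 (6.30). Its means at 10, 20 and 40 weeks were 0.486, 0.247 and 0.373. Lox reached it through MR at 2 and 40 weeks (means 2.10 and 1.69), against 0.412 and 0.493 at 10 and 20 weeks. Calls of these 2 genes are therefore descriptions only. At 10 weeks 3 of the 9 genes fell, where 1.37% of all genes were called and 1.07% fell: Fn1 at −1.72 ± 0.41 (limma adjusted p = 0.0321), Col1a1 at −1.70 ± 0.41 (0.0322) and Col1a2 at −1.27 ± 0.30 (0.0277). Without Sham replicate 3, which leaves these differences as they are and changes only their spread, 6 of the 9 genes were called, Col3a1, Postn and Tnc being added, where 165 of 9978 genes were. Single libraries decided this count. Without MR replicate 1 at 2 weeks, the library lowest in Col1a1, Col3a1, Fn1 and Lox in its group, it was 7, where 306 of 9982 genes were called. It was 0 without MR replicate 2, 3 or 4 at 2 weeks or without MR replicate 1, 2 or 3 at 10 weeks, fits that called 52 to 124 of all genes.

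At 20 weeks 6 of the 9 genes fell against MR at 2 weeks, where 8.81% of all genes were called and 4.81% fell. Postn was at −2.20 ± 0.69 (limma adjusted p = 0.0459), Fn1 at −2.05 ± 0.41 (0.00403), Col1a1 at −2.00 ± 0.41 (0.00469), Col3a1 at −1.77 ± 0.33 (0.00265), Tnc at −1.74 ± 0.44 (0.0175) and Col1a2 at −1.51 ± 0.30 (0.00376). For each of these 6 every library at 20 weeks was below every library at 2 weeks, against 5.57% of all genes lower without overlap. Tnc, which passed the filter through its 2-week level, adds no support to this count or to that at 40 weeks. Col5a1 (−0.61 ± 0.20, 0.0547), Col5a2 (−0.61 ± 0.21, 0.0629) and Lox (−0.81 ± 0.33, 0.113) were not called. The Postn call was lost without any 1 of the 4 libraries at 2 weeks or without MR replicate 2, 3, 4 or 5 at 20 weeks, with an adjusted p of 0.0562 to 0.118. At 40 weeks 7 of the 9 genes fell against 2 weeks, where 45.7% of all genes were called and 21.3% fell, the 2 others being Col5a1 at 0.07 ± 0.20 (0.799) and Lox at 0.02 ± 0.33 (0.966). Col5a2 was at −0.97 ± 0.21 in this comparison (limma adjusted p = 0.000729), Col3a1 at −1.60 ± 0.33 (0.000605), Col1a2 at −1.05 ± 0.30 (0.00624), Fn1 at −1.38 ± 0.41 (0.00877), Tnc at −1.60 ± 0.44 (0.00535) and Postn at −2.32 ± 0.69 (0.00880). Col1a1 was at −1.33 ± 0.41 (0.0110, or 0.0545 without MR replicate 2 at 2 weeks). Gene length moved with the differences here too, with a median of −0.19 in the set of shortest genes and 0.19 in the set of longest, as from 20 to 40 weeks, with −0.23 and 0.25.

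Between 10 and 20 weeks limma called 0 of the 9 genes, where 0.01% of all genes were called. Of the 9, edgeR called 0, where it called 1 of 10125 genes, and 0 had an unadjusted p under 0.05, against 1516 of 9984. From 20 to 40 weeks 2 of the 9 genes rose, where 38.8% of all genes were called and 21.3% rose. Col5a1 rose by 0.68 ± 0.19 (limma adjusted p = 0.00643), with no overlap between the groups, as for Col1a1 on the higher side, against 13.2% of all genes. Lox rose by 0.83 ± 0.31 (0.0359), and on the scale as deposited it was at 0.74 (0.0514) and Col5a2 was called lower at −0.52 (0.0399). The Lox call was also lost without MR replicate 2, 3 or 4 at 20 weeks or MR replicate 1, 4 or 5 at 40 weeks, with an adjusted p of 0.0599 to 0.0884. Lox was in this fit through its levels at 2 and 40 weeks, so it adds no support to the count of 2. Col1a1 at 0.67 ± 0.38 (0.171) was above every 20-week library in every 40-week library and passed when the 2 groups were fitted alone (0.00426). Fn1 at 0.67 ± 0.39 (0.176) passed there (0.00889) and without Sham replicate 3 (0.0289). On the scale as deposited the share of calls that were higher was 34.9% in this comparison, against 54.8% on the joined scale. For 10, 20 and 40 weeks against 2 weeks that share was 48.3%, 29.0% and 34.4% as deposited and 21.9%, 45.5% and 53.3% joined. The members called at 10 and 20 weeks numbered 3 and 6 on both scales, where as deposited 145 and 655 of 9991 genes were called.

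**Figure D4:**
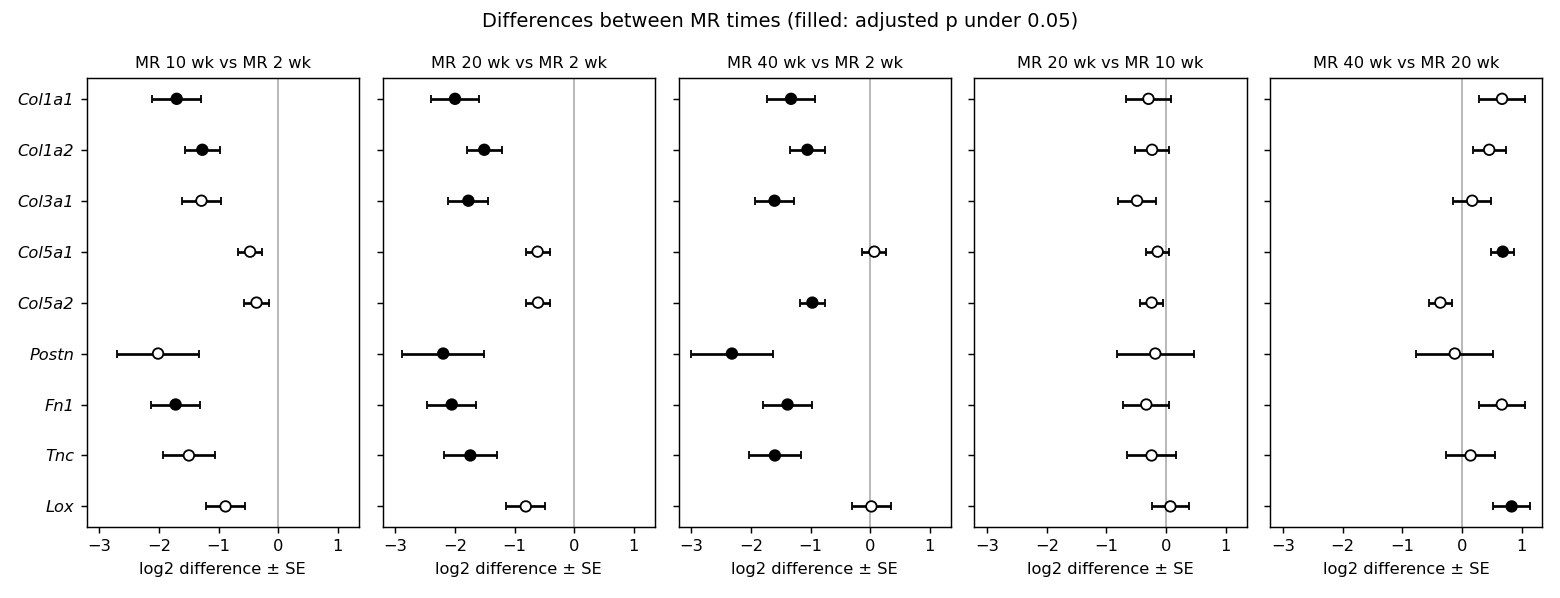
Differences between MR times for the 9 genes (log2 difference ± SE, joined scale), with filled circles for an adjusted p under 0.05. Filled marks lie left of 0 in the 3 comparisons with 2 weeks (3, 6 and 7 genes), none is filled between 10 and 20 weeks, and Col5a1 and Lox are filled right of 0 from 20 to 40 weeks.

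Over the 24 libraries the genes did not move as 1 block. The Spearman rho was 0.95 between Col1a1 and Col1a2, 0.88 between Col1a1 and Col3a1, 0.80 between Col1a2 and Fn1, and 0.74 between Postn and Tnc. It was 0.01 between Col5a1 and Col5a2 and −0.07 between Col5a2 and Lox, while Col5a1 and Lox were at 0.72. These values are descriptions over libraries that share their group, their depth and, for Sham, 1 library that stands apart. Among 4990 other genes at or above the median level, those most like the mean of the 9 standardised genes were Eln (rho 0.90), which encodes elastin, Col4a1 (0.86), a basement membrane collagen, Apc (0.85), Fam129b (0.83), Lama4 (0.83), a laminin chain, Serpinh1 (0.83), the collagen chaperone of the endoplasmic reticulum, Tubb6 (0.83) and Pea15 (0.82). Over the 23 libraries without Sham replicate 3, Vcan (0.83) and Lgals3bp (0.82) came in for Serpinh1 and Pea15.

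**Figure D5:**
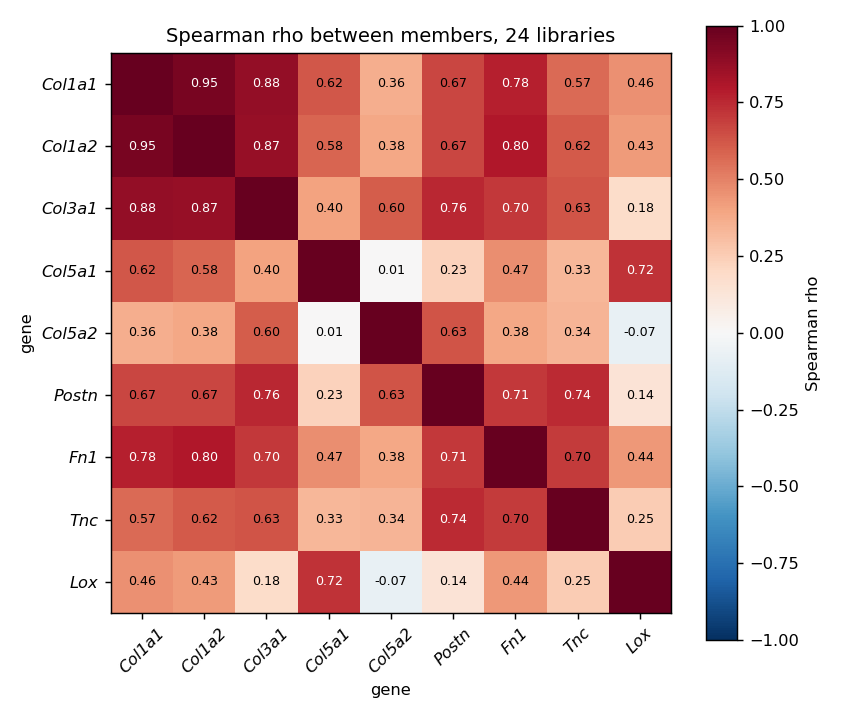
Spearman rho between each pair of the 9 genes over 24 libraries (colour scale from −1 to 1, genes on both axes). Col1a1, Col1a2 and Col3a1 form the block of highest values (0.87 to 0.95), and Col5a1 and Col5a2 are at 0.01.

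Genes that process, accompany or sense these collagens were counted in 4 lists. Against Sham at 2, 10 and 20 weeks none of their tested genes passed with limma without library weights or with edgeR. At an unadjusted p under 0.05 collagen processing and cross-linking held 1 of 26, 4 of 25 and 8 of 25 at these 3 times. Among the other fibril collagens and partners there were 0 of 20, 0 of 19 and 4 of 19. Receptors held 0 of 11, 1 of 11 and 1 of 10, and fibroblast activation signals 0, 2 and 3 of 21. Over all genes 556 of 10173, 1212 of 10096 and 951 of 10025 had such a p. At 20 weeks DESeq2 called 1 gene in each of the first 2 lists, both lower, and limma with library weights called 1 of 19 partners, also lower. Over all genes these 2 fits called 93 of 10260 and 30 of 10025. At 40 weeks 9 of 26 processing genes fell and 2 rose, with a list median of −0.23 against −0.15 over all genes. Over all genes 30.9% fell and 47.3% were called in this comparison, so the list was near the background. Sparc, which binds collagen during its assembly, fell by 1.13 ± 0.17 (limma adjusted p = 0.000281), and Ppib, a proline isomerase of collagen folding, fell by 1.16 ± 0.17 (0.000292).

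Of 11 receptors tested at 40 weeks, 4 rose and 0 fell, with a list median of 0.16, where 16.3% of all genes rose and 30.9% fell. Among the 4 were the collagen-binding integrin Itga1, by 1.03 ± 0.24 (limma adjusted p = 0.00358), and the collagen uptake receptor Mrc2, by 0.63 ± 0.16 (0.00655). Among 19 fibril partners 3 rose and 6 fell as deposited, and 5 rose and 3 fell after rescaling. Over all genes 2391 of 10077 rose and 2196 fell after rescaling. Thbs1, a matricellular activator of TGF-beta, rose by 1.17 ± 0.23 (0.00124), and the small proteoglycan Ogn by 0.78 ± 0.19 (0.00504). Of 21 activation signals 7 rose and 4 fell, among them the TGF-beta co-receptor Tgfbr3, which rose by 1.53 ± 0.17 (limma adjusted p = 0.000130), and the growth factor Pdgfa, which fell by 1.26 ± 0.18 (0.000259). Over all genes 47.3% were called, so calls among partners and activation signals, both directions together, were near the background.

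Against MR at 2 weeks, 6 of 25 processing genes fell and 1 rose at 20 weeks, and 3 of 19 partners fell and 0 rose. Over all genes 8.81% were called and 4.81% fell in that comparison. Loxl2, a relative of Lox, fell by 1.35 ± 0.27 (limma adjusted p = 0.00451), Thbs1 was at −2.15 ± 0.36 (0.000814) and Eln at −1.62 ± 0.35 (0.00742). From 20 to 40 weeks 6 of 19 partners, 5 of 11 receptors and 10 of 21 activation signals rose and 0 fell in each, while 5 of 25 processing genes rose and 6 fell. On the scale as deposited these counts were 4 higher and 1 lower, 5 and 0, 6 and 2, and, for processing, 3 and 7. Over all genes 38.8% were called and 21.3% rose in this comparison. Thbs1 rose by 2.86 ± 0.34 between these times (5.18e-06) and Loxl2 by 1.31 ± 0.26 (0.000380).

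Marker levels of other cells were not the same in every group. Dividing-cell markers (5 of 6 listed) summed to 26.3 to 64.1 in MR at 2 weeks, 5.80 to 17.4 in Sham and 4.08 to 9.09 at the later times. Macrophage markers (8 of 8 listed) summed to 99.98 to 147 in MR at 2 weeks, 67.2 to 96.8 in Sham without replicate 3 and 133 in that library. They were at 111 to 181 in MR at 10 weeks, 54.9 to 116 at 20 weeks and 41.0 to 105 at 40 weeks. Quiescent fibroblast markers (9 of 9 listed) were at 832 to 1514 in MR at 2 weeks and 1464 to 1848 in Sham. That sum rests on Gsn, at −0.95 ± 0.23 (limma adjusted p = 0.376), and the median of the 9 markers was −0.05 against −0.07 over all genes. Myofibroblast markers (8 of 8) were at 107 to 139 in MR at 2 weeks, 85.4 to 159 at 10 weeks and 70.3 to 108 at 20 weeks, against 33.5 to 109 in Sham without replicate 3. Mesothelial markers (5 of 8 listed) summed to 25.2 to 63.0 in MR at 2 weeks and 18.9 to 40.5 in Sham, with Upk3b, Krt18 and Lrrn4 not listed in all tables. At 40 weeks endothelial markers (8 of 8) were at 536 to 779, against 780 to 1149 in Sham, and myofibroblast markers at 17.2 to 115. Fabp4, with a mean of 346 in Sham without replicate 3, weighs in the endothelial sum and is also an adipocyte marker. The adipocyte markers (3 of 6 listed, Fabp4 among them) summed to 200 to 323 at 40 weeks and 355 to 592 in Sham. The part of these cell markers in the collagen and matrix differences was not tested.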

How the data were processed

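RNA of 24 rat myocardium libraries was sequenced on Illumina instruments. The deposited tables hold a normalised signal per gene for each library, made with Partek on genome build rn6, per the submitters' processing notes. For aligner, annotation and strand setting: not given in the sources used here. Dividing by each library's step gave whole reads (within 0.1) for 97.4% to 97.5% of values, and these recovered reads were used in edgeR 4.0.16 and DESeq2 1.42.0 as alternatives. Tests used limma 3.58.1 in R 4.3.3 on log2(value + 1), for genes with a table mean of at least 1, with Benjamini-Hochberg adjustment over all genes, each MR time against Sham in its own table. MR times were compared after joining the tables and rescaling by the median ratio. Collagen ratios were compared by exact permutation. Scripts were tested on simulated data. The 9 genes were named in each comparison, with at most 2 genes of smallest adjusted p from each list that held a call, and the 8 genes most like them. The members and lists were chosen with earlier results of these data known. MR libraries at 2 weeks are numbered 1 to 4 here, and their title numbers run 1, 3, 4 and 5. Whether the same title numbers pair Sham and MR libraries at 2 weeks is not given in the labels, and the main fits are unpaired.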

Additional observations from a re-analysis of the deposited data

Results flagged for a closer look

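Single libraries lay far from the rest of their group. In Sham, replicate 3 was the highest library for Col1a1 (636, next 150.0), Col1a2 (466), Col3a1 (1232), Col5a2 (73.9), Postn (82.3), Fn1 (128), Tnc (6.30) and Lox (2.06). In MR at 40 weeks, replicate 1 was highest for Col1a1 (151, next 106) and Col3a1 (385, next 247). In MR at 10 weeks, replicate 4 was highest for Postn (16.9, next 4.98). Chance marks about 1 in 20 such groups, and these genes share libraries.

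Differences between MR times passed the test of the difference itself, in log2. From 2 to 10 weeks Col1a1 was at −1.70, Col1a2 at −1.27 and Fn1 at −1.72. From 2 to 20 weeks Col1a1 was at −2.00, Col1a2 at −1.51, Col3a1 at −1.77, Postn at −2.20, Fn1 at −2.05 and Tnc at −1.74. From 2 to 40 weeks Col1a1 was at −1.33, Col1a2 at −1.05, Col3a1 at −1.60, Col5a2 at −0.97, Postn at −2.32, Fn1 at −1.38 and Tnc at −1.60. From 20 to 40 weeks Col5a1 was at 0.68 and Lox at 0.83. Tnc and Lox passed the filter on low values through the groups where they were high, so their entries are descriptions only.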

How the results depend on the processing

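The count of the 9 genes called against Sham at 20 weeks was 0, and it was 2 with DESeq2, 1 with library weights and 0 to 2 over fits leaving out 1 library. Over all genes these fits called, in turn, 7 of 10025, 93 of 10260, 30 of 10025 and 2 to 14. At 40 weeks the count was 4, and it was 2 with all 24 libraries in 1 fit and 2 to 5 over fits leaving out 1 library. Over all genes these fits called, in turn, 4772 of 10094, 4409 of 9984 and 4035 to 4948. From 2 to 10 weeks the count was 3, and it was 1 with only the 2 groups, 6 without Sham replicate 3 (chosen after seeing the data) and 0 to 7 over fits leaving out 1 library. Over all genes these fits called, in turn, 137 of 9984, 45 of 9956, 165 of 9978 and 52 to 306. From 20 to 40 weeks the count was 2, and it was 1 with pseudocount 5, 5 of 8 tested with only the 2 groups and 1 to 3 over fits leaving out 1 library. Over all genes these fits called, in turn, 3875 of 9984, 3845 of 9984, 4077 of 9878 and 3098 to 4236. The collagen I to III ratio at 2 weeks (0.00) was −0.12 with Col1a2 over Col3a1 and −0.078 to 0.14 without 1 library. At 10 weeks (−0.42) it was −0.49 to −0.29 and at 40 weeks (0.28) 0.19 to 0.41 without 1 library. With Col1a2 over Col3a1 it was −0.12 at 10 weeks, 0.13 at 20 weeks and 0.42 at 40 weeks. The cause was not tested.

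Small differences changed sign. Against Sham at 10 weeks Col5a2 (0.05) was −0.026 rescaled, −0.049 with edgeR, −0.052 with DESeq2, −0.016 with all 24 libraries and −0.045 to 0.22 without 1 library, and Col5a1 (−0.02) was −0.12 to 0.077. Fn1 at 40 weeks was −0.69 to 0.049 without 1 library. From 2 to 40 weeks Lox (0.02) was −0.049 with pseudocount 5, −0.080 as deposited, −0.31 with edgeR and −0.41 to 0.17 without 1 library, and Col5a1 (0.07) was −0.094 as deposited and −0.14 to 0.27. From 10 to 20 weeks Postn was −0.41 to 0.29 and Lox −0.013 to 0.16 without 1 library, and from 20 to 40 weeks Postn was −0.42 to 0.10.

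With the replicate block at 2 weeks 0 of the 9 genes were called, as without it, and 0 of 10173 genes were called in each fit. With the block Fn1 was at 0.89 and Tnc at 1.09. The deviations of same-numbered libraries correlated at −0.11, −0.20, −0.02 and 0.32. Differently numbered libraries were not set beside them, so these values cannot show whether the numbers pair the libraries. At 10, 20 and 40 weeks no paired analysis was possible because the groups share no numbers. Tnc and Lox rest on few reads, which limits their precision.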
